A study of Homo sapiens with 24 samples.

Results

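PAX8 and 7 other transcription factors of the renal lineage, PAX2, LHX1, EMX2, WT1, GATA3, POU3F3 and TFCP2L1, were followed in human clear cell renal cell carcinoma (ccRCC) cells carrying a hairpin against PAX8. The 8 genes were chosen by name, for their roles in kidney development, out of 26475 genes in each library, and the rule itself used no measured value, although earlier results of these data were known. The RNA-seq libraries came from 786-M1A and OS-LM1, metastatic derivatives of the VHL-mutant ccRCC lines 786-O and OS-RC2. All cells were grown as cultures in RPMI with FBS. Each line had 4 libraries with the hairpin shPAX8-1, 4 with the hairpin shPAX8-2 and 4 with sgNTC18, the control construct, which gave 24 libraries in 6 groups. The name sgNTC18 has the form of a guide RNA rather than a hairpin. A difference between sgNTC18 and shPAX8 libraries therefore cannot be told apart from a difference between kinds of vector, their selection or the experiments they came from. The methods describe doxycycline-inducible hairpin plasmids, and the time for which these cells were induced is not given in the sources used here. Each line stands for a single tumour, and no label states that replicates were separate cultures.

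PAX8 and PAX2 encode closely related paired-box transcription factors that overlap in function when the nephric lineage is set up in the embryo. PAX8 stays on in adult renal epithelium and in most renal tumours, for which it serves as a diagnostic marker. LHX1, a LIM homeobox factor, acts in the nephric duct and in nephron patterning and is known as a downstream gene of the PAX2 and PAX8 programme. EMX2 and GATA3 act in the nephric duct and ureteric bud, WT1 in nephron progenitors and podocytes, POU3F3 in the distal nephron and TFCP2L1 in the distal tubule and collecting duct.

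The guide strands of both hairpins are shown because they define which part of PAX8 each library was aimed at. They are written 5′ to 3′ with bases 2 to 8, the seed that leads target recognition, in capitals.
shPAX8-1: tGTGAGTCaatgcttagtcggc
shPAX8-2: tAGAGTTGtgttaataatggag
Both guides were 22 bases long, and each was complementary to PAX8 over its whole length. The shPAX8-1 site lay in coding exon 7 of the 12 exons of the canonical transcript, at chr2:113241690-113241711 on the minus strand (GRCh38), and occurred in 10 of the 14 PAX8 transcripts of GENCODE release 44. The shPAX8-2 site lay in the 3′ UTR within exon 12, at chr2:113218122-113218143 on the minus strand, and occurred in 7 of those 14 transcripts. No annotated transcript of another gene held either full site, so neither guide matched PAX2 or another of the 8 factors over its whole length.

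Expected counts per library summed to between 11634419 and 52059375, and their median was lower for the 16 libraries with a hairpin (18200166) than for the 8 controls (32029482.5). Levels are given as CPM, counts scaled to a common library size by TMM, and differences as log2 fold changes with their standard error (SE) and a Benjamini-Hochberg adjusted p over all genes tested. The summed level of 16 markers of renal tubule and ccRCC cells was 10348 to 10690 CPM with sgNTC18 and 8029 to 9306 CPM with the hairpins in 786-M1A, and 10032 to 13244 CPM and 5197 to 7048 CPM in OS-LM1, so it was lower in all depleted libraries. This sum was carried by VIM, at 3666 to 11424 CPM, and none of the other markers exceeded 579 CPM. The list also holds PAX8, the target of the hairpins, so the sum does not measure renal identity as a whole. The proximal tubule gene LRP2 stayed at or below 0.0971 CPM, and 9 libraries held no count of CA9. Of the other cell types checked, the summed endothelial markers reached at most 1.41 CPM and the summed thyroid follicular markers 0.803 CPM, with CD3E and NKX2-1 at 0 in all 24 libraries. The 5 fibroblast and mural markers, carried by PDGFRB and COL1A1 with DCN at or below 1.17 CPM, summed to 534 to 726 CPM with sgNTC18, 195 to 421 CPM with shPAX8-1 and 663 to 886 CPM with shPAX8-2 in 786-M1A. In OS-LM1 they summed to 14.2 to 19.7 CPM with sgNTC18 and 104 to 210 CPM with the hairpins. The 5 immune markers, carried by CD68 with PTPRC at or below 0.317 CPM, summed to 77.1 to 90.8 CPM in OS-LM1 with sgNTC18 and 191 to 361 CPM with the hairpins. In 786-M1A they summed to 185 to 216 CPM with sgNTC18, 200 to 307 CPM with shPAX8-1 and 308 to 400 CPM with shPAX8-2. The part of these changes in the results below was not tested.

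PAX8 was reduced in all 16 shPAX8 libraries, more deeply in 786-M1A than in OS-LM1. In 786-M1A it stood at 291, 393, 359.6 and 319 CPM in the sgNTC18 libraries. It fell to 22.9, 21.9, 15.2 and 14.8 CPM with shPAX8-1 and to 41.3, 45.5, 42.6 and 40.0 CPM with shPAX8-2. The groups did not overlap, and what remained was 5.49% ± 1.27 (SD, n = 4) of the sgNTC18 mean with shPAX8-1 and 12.4% ± 0.694 (SD, n = 4) with shPAX8-2. In OS-LM1, PAX8 stood at 262, 279, 245 and 254 CPM with sgNTC18. It was at 85.5, 78.3, 59.8 and 89.1 CPM with shPAX8-1 and at 76.2, 63.7, 97.0 and 79.9 CPM with shPAX8-2. Here 30.1% ± 5.02 (SD, n = 4) and 30.5% ± 5.28 (SD, n = 4) of the sgNTC18 mean remained, and the values of the hairpins overlapped.

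As log2 fold changes against sgNTC18, PAX8 changed by -4.16 (SE 0.16, adjusted p 3.7e-11) with shPAX8-1 and by -2.99 (SE 0.15, adjusted p 9.3e-10) with shPAX8-2 in 786-M1A. In OS-LM1 the changes were -1.76 (SE 0.12, adjusted p 2.3e-10) and -1.71 (SE 0.12, adjusted p 4.3e-10). The response differed between the lines: the log2 fold change of PAX8 in OS-LM1 was less negative by 2.45 (SE 0.20, adjusted p 1.1e-10) for shPAX8-1 and by 1.30 (SE 0.20, adjusted p 5.0e-06) for shPAX8-2. Against the other genes of the same fits, 0.415% and 0.713% of those tested in 786-M1A had a more negative fold change than PAX8, and 6.05% and 5.17% of those tested in OS-LM1. The hairpins differed from each other in 786-M1A, with shPAX8-1 giving the lower PAX8 level (log2 fold change -1.18, SE 0.15, adjusted p 4.0e-05). No such difference was detected in OS-LM1 (-0.05, SE 0.12, 95% interval -0.31 to 0.21, adjusted p 0.80). The 4 shPAX8-1 libraries of 786-M1A formed pairs, replicates 1 and 2 with the higher PAX8 levels and replicates 3 and 4 with the lower ones.

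**Figure D1:**
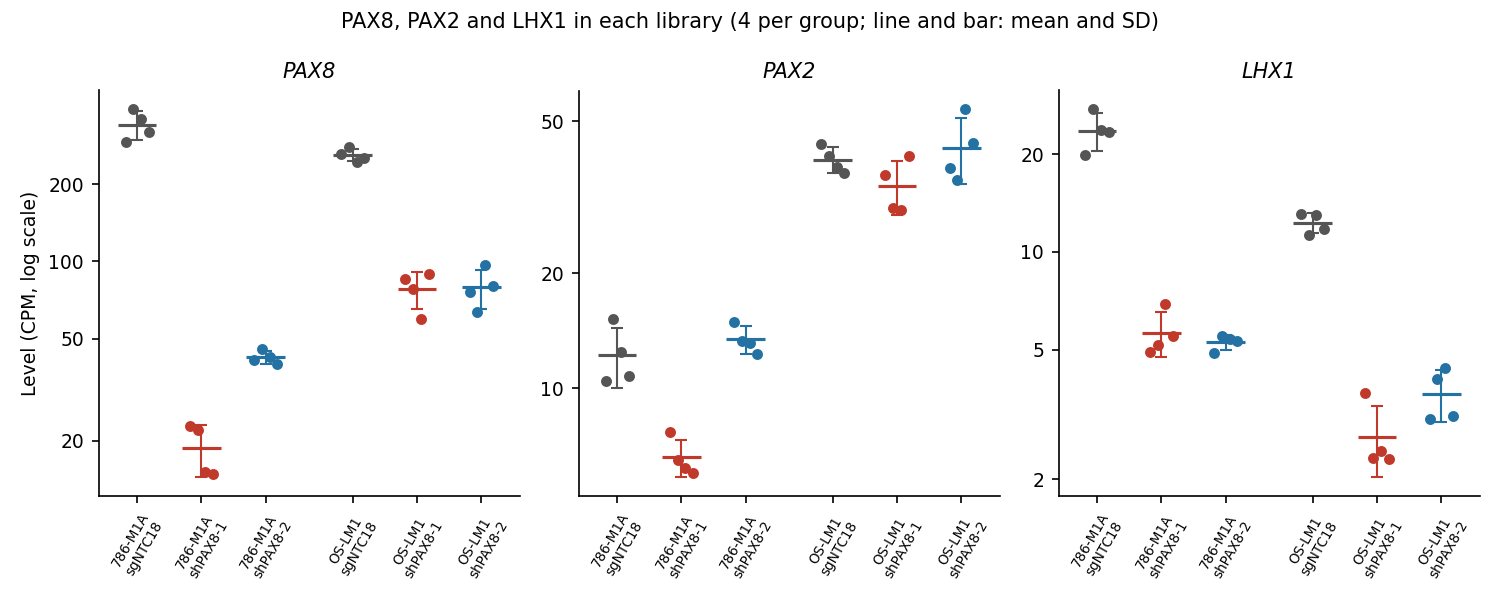
Levels of PAX8, PAX2 and LHX1 in CPM on a log axis, by line and construct. Each point is a library, and the horizontal line and bar give the mean and SD of 4. PAX8 and LHX1 were lower in every shPAX8 library than in any sgNTC18 library of the same line, while PAX2 lay below all sgNTC18 libraries of its line in the shPAX8-1 libraries of 786-M1A (6.02 to 7.68 CPM).

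LHX1 fell with both hairpins in both lines, from levels far below those of PAX8. In 786-M1A it was at 19.9, 27.5, 23.6 and 23.3 CPM with sgNTC18. It was at 4.91, 5.18, 6.92 and 5.52 CPM with shPAX8-1 and at 4.89, 5.50, 5.39 and 5.33 CPM with shPAX8-2. Every depleted library was below every sgNTC18 library, and the values of the hairpins overlapped. In OS-LM1 it was at 13, 11.3, 13 and 11.8 CPM with sgNTC18, at 3.69, 2.33, 2.45 and 2.31 CPM with shPAX8-1 and at 3.08, 4.06, 4.40 and 3.14 CPM with shPAX8-2. The share of the sgNTC18 mean that remained lay between 22.0% and 29.9% in the 4 combinations of hairpin and line.

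The log2 fold changes of LHX1 were -2.05 (SE 0.14, adjusted p 8.1e-09) with shPAX8-1 and -2.14 (SE 0.14, adjusted p 1.3e-08) with shPAX8-2 in 786-M1A. They were -2.22 (SE 0.17, adjusted p 5.0e-10) and -1.72 (SE 0.16, adjusted p 1.3e-08) in OS-LM1. Between 2.12% and 5.08% of the genes tested had a more negative fold change in these comparisons. In 786-M1A, where PAX8 differed between the hairpins, LHX1 differed by 0.09 (SE 0.15, 95% interval -0.22 to 0.41, adjusted p 0.63). The difference of its response between the lines was not called for shPAX8-1 (-0.12, SE 0.21, adjusted p 0.65) or for shPAX8-2 (0.43, SE 0.21, adjusted p 0.092), although with the GC trend of the libraries removed the latter was 0.55 (adjusted p 0.026). In OS-LM1, LHX1 was lower with shPAX8-1 than with shPAX8-2 by -0.49 (SE 0.17, adjusted p 0.039), a call lost with a replicate block (adjusted p 0.061), with the GC correction (adjusted p 0.058) and on leaving out any of 5 libraries (adjusted p 0.20 without shPAX8-2 replicate 3, the library of greatest depth).

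PAX2 behaved differently from LHX1: of the 4 comparisons with sgNTC18 it was called lower in that of shPAX8-1 in 786-M1A, and this call depended on how base composition was handled. In 786-M1A, PAX2 was at 10.4, 15.2, 12.4 and 10.8 CPM with sgNTC18. It was at 7.68, 6.5, 6.20 and 6.02 CPM with shPAX8-1 and at 15.0, 13.3, 13.2 and 12.3 CPM with shPAX8-2. The shPAX8-1 libraries lay below both other groups, which overlapped. In OS-LM1, PAX2 was at 43.5, 40.6, 38.0 and 36.5 CPM with sgNTC18, at 36.1, 29.6, 29.2 and 40.6 CPM with shPAX8-1 and at 37.8, 35.1, 53.8 and 43.7 CPM with shPAX8-2. All 3 groups of OS-LM1 overlapped.

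The log2 fold change of PAX2 against sgNTC18 was -0.86 (SE 0.14, adjusted p 7.5e-05) with shPAX8-1 in 786-M1A, and 22.0% of the genes tested were more negative. The other values were 0.16 (SE 0.14, adjusted p 0.33) with shPAX8-2 in 786-M1A, -0.25 (SE 0.13, adjusted p 0.083) with shPAX8-1 in OS-LM1 and 0.11 (SE 0.13, adjusted p 0.44) with shPAX8-2 in OS-LM1. PAX2 is rich in G and C: its longest annotated transcript held 63.6% GC, and 94.9% of the genes tested held less. Fold changes of all genes moved with GC content in these libraries, with a rank correlation across genes of -0.36 for shPAX8-1 against sgNTC18 in 786-M1A and -0.32 in OS-LM1. After a correction for this trend, the fold change of PAX2 became -0.09 (adjusted p 0.54) with shPAX8-1 in 786-M1A and 0.37 (adjusted p 0.012) with shPAX8-2. In OS-LM1 it became 0.32 (adjusted p 0.0021) and 0.53 (adjusted p 1.3e-05), so the direction of PAX2 with shPAX8-1 turned there. PAX8 and LHX1 kept their direction and their calls against sgNTC18 under the same correction, with values of -3.67 and -1.72 for shPAX8-1 in 786-M1A.

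PAX2 was also lower with shPAX8-1 than with shPAX8-2, by -1.02 (SE 0.15, adjusted p 1.1e-04) in 786-M1A and by -0.37 (SE 0.13, adjusted p 0.038) in OS-LM1. The GC trend was strongest between the hairpins in 786-M1A, with a rank correlation of -0.56, and removing it reduced the difference to -0.47 (adjusted p 0.0080). The difference in OS-LM1 was lost in 10 of 15 alternatives, among them the replicate block (adjusted p 0.070), the GC correction (adjusted p 0.068), no filter (adjusted p 0.060), the fit over all libraries (adjusted p 0.074) and the omission of any of 5 libraries (adjusted p 0.23 without shPAX8-2 replicate 3).

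**Figure D2:**
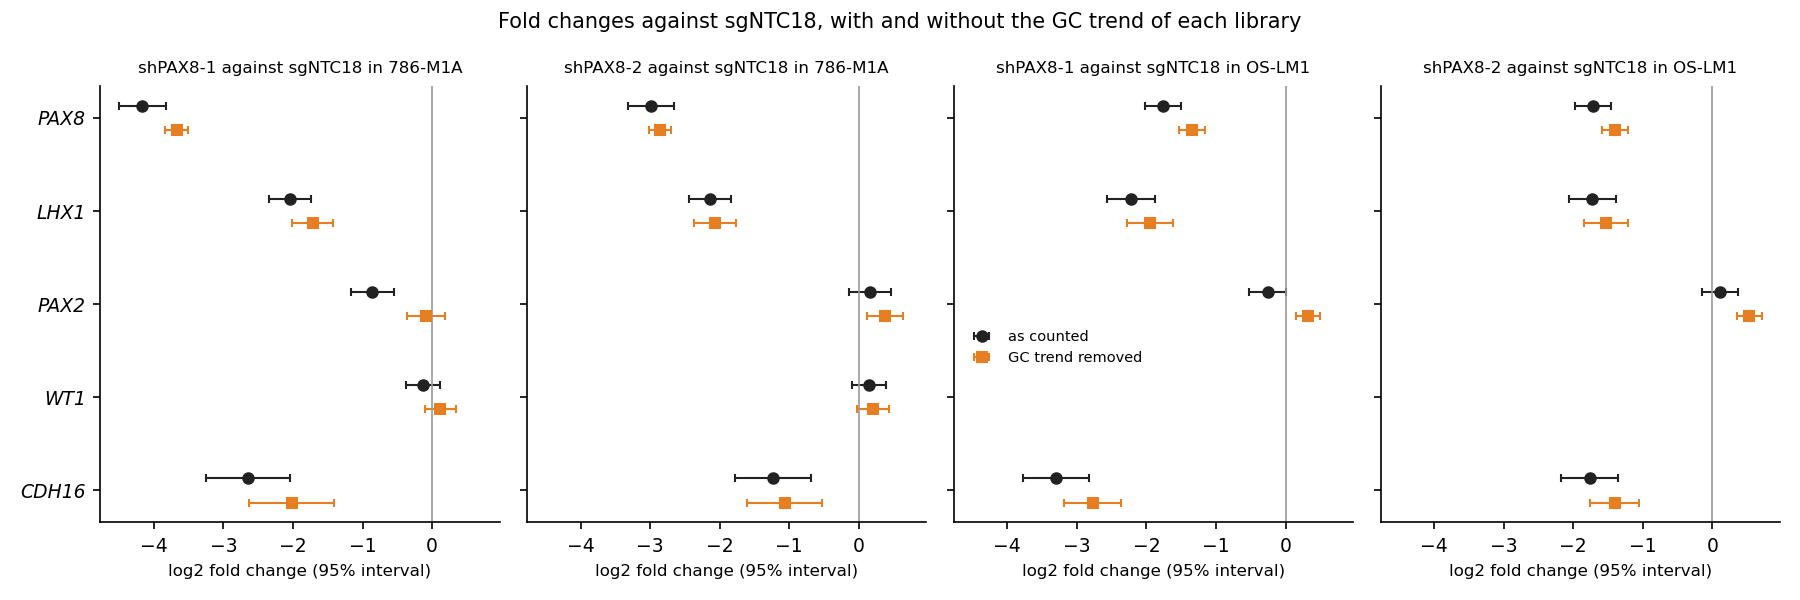
Log2 fold changes against sgNTC18 with 95% intervals for PAX8, LHX1, PAX2 and WT1 and for CDH16 from the lists of related genes, as counted (circles) and after the GC correction (squares). WT1 was not tested in OS-LM1. PAX8 and LHX1 stayed well below 0 in all 4 panels, while PAX2 moved from -0.25 to 0.32 with shPAX8-1 in OS-LM1.

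Because transcripts of PAX8 and PAX2 differ in length, their levels were compared as TPM, which scales counts by transcript length. With sgNTC18, PAX8 exceeded PAX2 25.8-fold in 786-M1A (24.1 to 26.9 over the libraries) and 6.07-fold in OS-LM1 (5.56 to 6.44). The ratio was 2.54 and 2.89 with shPAX8-1 and shPAX8-2 in 786-M1A and 2.10 and 1.69 in OS-LM1. The sum of both TPM values fell from 163 ± 18 (SD, n = 4) to 11.1 ± 2.32 and 24 ± 1.28 in 786-M1A, and from 132 ± 7.44 to 50.5 ± 6.21 and 53.3 ± 9.09 in OS-LM1. PAX8 still made up 62.8% or more of this sum on average in every depleted group.

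**Figure D3:**
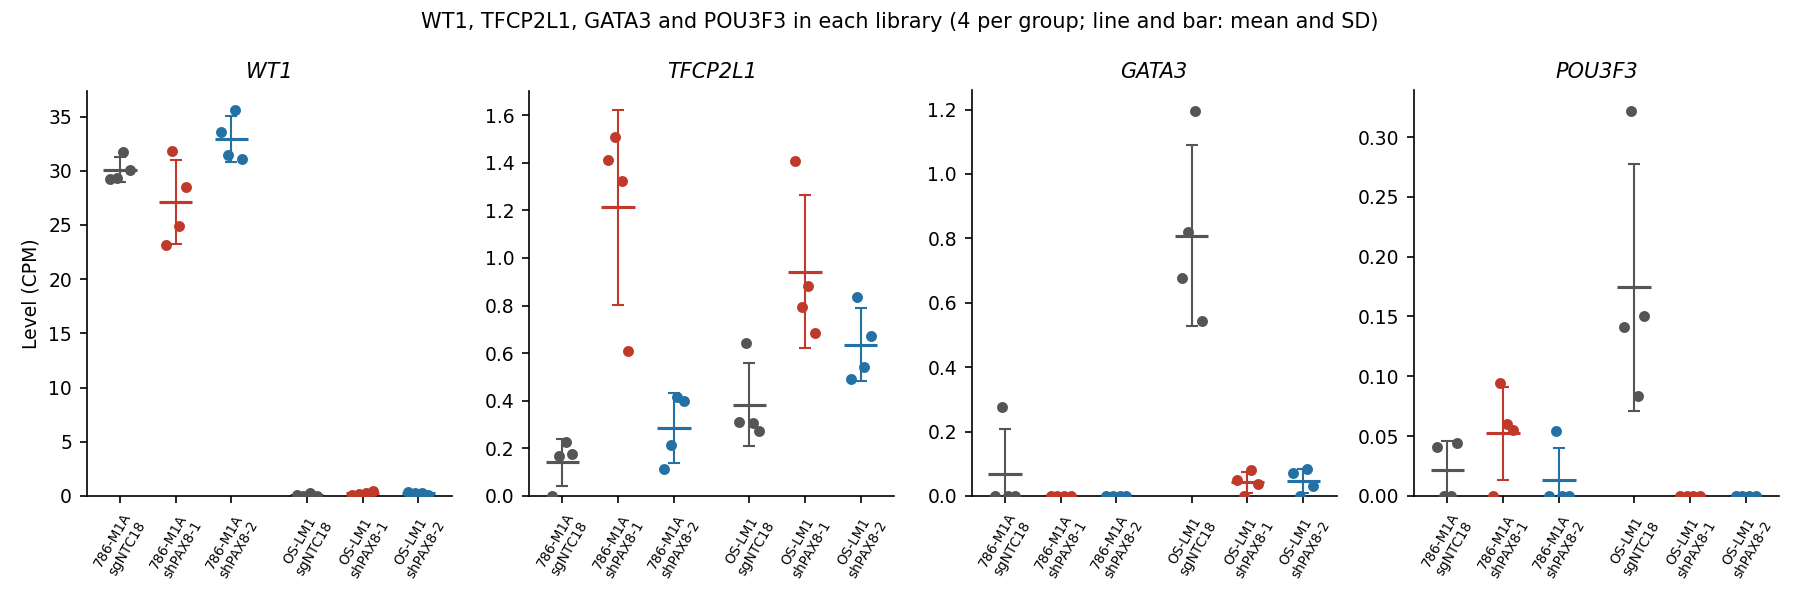
Levels of WT1, TFCP2L1, GATA3 and POU3F3 in CPM by line and construct, each panel on its own linear axis. Each point is a library, and the line and bar give the mean and SD of 4. WT1 reached 23.2 CPM or more in all 786-M1A libraries and no more than 0.417 CPM in OS-LM1, and the other genes reached at most 1.51 CPM.

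WT1, a zinc finger factor of nephron progenitors and podocytes, separated the lines rather than the constructs. In 786-M1A it was at 29.3, 29.3, 31.8 and 30.1 CPM with sgNTC18, at 23.2, 31.8, 24.9 and 28.5 CPM with shPAX8-1 and at 33.6, 31.5, 35.6 and 31.0 CPM with shPAX8-2. These groups overlapped, and the fold changes against sgNTC18 were -0.13 (SE 0.11, adjusted p 0.32) and 0.15 (SE 0.11, adjusted p 0.27). The 12 OS-LM1 libraries held between 0 and 13 WT1 counts each, and no more than 0.417 CPM. With sgNTC18, WT1 was lower in OS-LM1 by a log2 fold change of -8.36 (SE 0.32, adjusted p 2.8e-18). WT1 passed the filter of that fit through 786-M1A, so the call adds nothing to the levels themselves. The OS-LM1 means were 0.084 CPM with sgNTC18 and 0.252 and 0.246 CPM with the hairpins, from 12, 24 and 25 counts in the groups. The difference in its response to shPAX8-1 between the lines (1.70, SE 0.60, adjusted p 0.018) rested on these counts and was lost without OS-LM1 sgNTC18 replicate 2 (1.43, adjusted p 0.052) or OS-LM1 shPAX8-1 replicate 4 (1.33, adjusted p 0.10).

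GATA3, a zinc finger factor of the nephric duct, was barely expressed in OS-LM1 and close to absent from the 786-M1A counts. With sgNTC18, OS-LM1 held 0.676, 0.820, 1.20 and 0.542 CPM, from 113 counts over the group. With shPAX8-1 it held 0.0486, 0, 0.0803 and 0.0379 CPM, and with shPAX8-2 0.0699, 0, 0.0834 and 0.0320 CPM, from 4 and 6 counts. The depleted libraries lay below all sgNTC18 libraries, with log2 fold changes of -4.10 (SE 0.59, adjusted p 3.8e-06) and -3.83 (SE 0.55, adjusted p 4.6e-06). These fitted values rest on few counts and depend on the prior count of the fit. In 786-M1A, 5 counts were found, all in sgNTC18 replicate 2, and the 8 depleted libraries held 0, so no fold change is given for that line.

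POU3F3, a POU-domain factor of the distal nephron, was too low for the filter of every fit. In OS-LM1 it had 24 counts over the 4 sgNTC18 libraries (0.141, 0.322, 0.0834 and 0.151 CPM) and none in the 8 depleted libraries. Taking 3 counts over a group as the limit that a count of 0 allows, POU3F3 was at least 5.19-fold lower with shPAX8-1 and at least 6.71-fold lower with shPAX8-2, with counting error alone considered. The 786-M1A groups held 2, 4 and 1 counts, and no difference was detectable at this depth. EMX2, a homeobox factor of the ureteric bud, had 3 counts in all, 1 in the OS-LM1 sgNTC18 group and 2 in the OS-LM1 shPAX8-1 group, and was not detectable in 786-M1A.

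TFCP2L1, a grainyhead-family factor of the collecting duct, was low everywhere and, in the fits without GC correction, the gene among the 8 called higher than with sgNTC18. In 786-M1A it was at 0, 0.166, 0.226 and 0.176 CPM with sgNTC18 and at 1.41, 1.51, 1.32 and 0.607 CPM with shPAX8-1, with no overlap (3.04, SE 0.53, adjusted p 1.0e-04). With shPAX8-2 it was at 0.114, 0.216, 0.414 and 0.40 CPM, which overlapped with sgNTC18 (0.91, SE 0.66, adjusted p 0.24). In OS-LM1 it was at 0.310, 0.644, 0.306 and 0.271 CPM with sgNTC18 and at 1.41, 0.793, 0.883 and 0.683 CPM with shPAX8-1 (1.25, SE 0.37, adjusted p 0.0051). The values with shPAX8-2 were 0.490, 0.835, 0.542 and 0.672 CPM (0.71, SE 0.38, adjusted p 0.10). These levels came from 14 to 92 counts in each group of 4. Its rise with shPAX8-1 was smaller in OS-LM1 by a log2 difference of -1.75 (SE 0.65, adjusted p 0.025), a call lost without 786-M1A sgNTC18 replicate 1 (-1.34, adjusted p 0.060), without OS-LM1 sgNTC18 replicate 2 (-1.38, adjusted p 0.083) and with replicates 3 and 4 alone of shPAX8-1 in 786-M1A (-1.43, adjusted p 0.11).

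The counts of called genes stand against a high background, since most genes tested were called in the comparisons with sgNTC18. Of the 8, 5 could be tested in each line, since EMX2 and POU3F3 failed the filter in both and GATA3 in 786-M1A and WT1 in OS-LM1 failed it as well. With shPAX8-1 in 786-M1A, 3 were lower (PAX8, PAX2 and LHX1) and 1 was higher (TFCP2L1), against 34.5% lower and 36.1% higher among all 14452 genes tested. With shPAX8-2 in 786-M1A, 2 were lower and 0 higher, against 30.9% and 31.5%. With shPAX8-1 in OS-LM1, 3 were lower (PAX8, LHX1 and GATA3) and 1 was higher, against 35.8% and 35.6% of 15049 genes. With shPAX8-2 in OS-LM1, 3 were lower and 0 higher, against 34.1% and 34.3%. A filter on low counts passes a gene through the group in which it is high, so such a gene had to differ. This held for GATA3 in OS-LM1 and for TFCP2L1 in both lines, and their calls add no support. In 786-M1A, TFCP2L1 had 14 counts with sgNTC18, 17 with shPAX8-2 and 92 with shPAX8-1. In OS-LM1 it passed through the depleted groups, with means of 0.942 CPM for shPAX8-1 and 0.635 CPM for shPAX8-2 against 0.383 CPM for sgNTC18. Of these counts, PAX8 and LHX1 were the genes lower in all 4 comparisons. PAX8 is the target of both hairpins, so its calls were set by the design and add nothing on the other factors.

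Between the hairpins, 2 of 5 were lower with shPAX8-1 (PAX8 and PAX2) and 1 higher (TFCP2L1) in 786-M1A, against 22.9% and 24.2% of all genes. In OS-LM1, 2 of 5 were lower (PAX2 and LHX1) and 0 higher, against 16.7% and 12.4%, and this count fell to 0 in several alternatives given further on. In 786-M1A the TFCP2L1 level with shPAX8-1 exceeded that with shPAX8-2 by 2.13 on the log2 scale (SE 0.52, adjusted p 0.0042), and 0.235% of the genes tested had a larger rise. TFCP2L1 passed the filter there through the shPAX8-1 group, so this call and this rank add no support. The exact two-sided permutation test of 4 against 4 libraries, run as a check that borrows no spread from other genes, cannot go below p = 0.029. Of 72 such tests, 34 reached that value (adjusted p 0.0605), among them 31 of the 33 calls made by edgeR in the comparisons of 2 groups.

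Differences between the lines were called for several of the 8 genes also without depletion. With sgNTC18, 3 of 6 genes tested were lower in OS-LM1 (PAX8, LHX1 and WT1) and 3 were higher (PAX2, GATA3 and TFCP2L1), against 31.0% and 32.0% of 15665 genes. PAX2 was higher in OS-LM1 by 1.70 (SE 0.14, adjusted p 4.7e-11), and the 4 OS-LM1 libraries were all above the 4 of 786-M1A. LHX1 was lower by -0.94 (SE 0.14, adjusted p 1.8e-06). PAX8 was lower by -0.39 (SE 0.14, adjusted p 0.015), a call lost with the GC trend removed (-0.14, adjusted p 0.11) and without 786-M1A sgNTC18 replicate 2 (-0.32, adjusted p 0.066). TFCP2L1 was higher by 1.37 (SE 0.52, adjusted p 0.024), lost without 786-M1A sgNTC18 replicate 1 (adjusted p 0.086) or OS-LM1 sgNTC18 replicate 2 (adjusted p 0.11). GATA3 was higher by 3.78 (SE 0.73, adjusted p 1.3e-04), on the low counts given above. In the fit over all libraries GATA3 passed the filter through the sgNTC18 group of OS-LM1. WT1 passed it through the groups of 786-M1A. Each had to differ between the lines, so the GATA3 call here and the WT1 calls between the lines, with sgNTC18 or a hairpin, add no support.

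In the depleted libraries the order of the lines turned for PAX8. With shPAX8-1, 2 of 6 genes were lower in OS-LM1 (LHX1 and WT1) and 2 higher (PAX8 and PAX2), against 37.7% and 38.7% of all genes. With shPAX8-2, 2 were lower (LHX1 and WT1) and 3 higher (PAX8, PAX2 and TFCP2L1), against 38.2% and 38.7%. The call of TFCP2L1 (1.19, SE 0.50, adjusted p 0.034) was lost without shPAX8-2 replicate 2 (adjusted p 0.076) or 4 (adjusted p 0.061) of OS-LM1 or replicate 1 (adjusted p 0.13) or 2 (adjusted p 0.088) of 786-M1A. PAX8 was higher in OS-LM1 by 2.06 (SE 0.15, adjusted p 1.5e-12) with shPAX8-1 and by 0.91 (SE 0.14, adjusted p 2.4e-06) with shPAX8-2. LHX1 stayed lower in OS-LM1 with shPAX8-1 (-1.06, SE 0.16, adjusted p 1.9e-06) and with shPAX8-2 (-0.51, SE 0.16, adjusted p 0.0061), although the latter was lost with the GC trend removed (-0.28, adjusted p 0.12). The depleted OS-LM1 cells thus held more PAX8 RNA than those of 786-M1A and less LHX1 RNA.

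The difference of the response between the lines was called for 4 of 6 genes with shPAX8-1 against sgNTC18 (PAX8, PAX2, WT1 and TFCP2L1), against 55.3% of all genes. It was called for 1 of 6, PAX8, with shPAX8-2 against sgNTC18, against 53.2%, and for 2 of 6, PAX8 and PAX2, between the hairpins, against 27.2%. For PAX2 it was 0.66 (SE 0.20, adjusted p 0.0072) with shPAX8-1 against sgNTC18 and 0.69 (SE 0.20, adjusted p 0.013) between the hairpins. The former was lost with replicates 1 and 2 alone of shPAX8-1 in 786-M1A (0.51, adjusted p 0.054) and the latter with the GC trend removed (0.28, adjusted p 0.18).

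Among the 9 genes of the PAX family, only PAX8, PAX2 and PAX6 passed the filter in any fit. PAX6, a factor of eye and endocrine development, rose in 786-M1A with shPAX8-1, from 8.08 ± 0.755 to 14.8 ± 1.21 CPM (SD, n = 4 each), by 0.90 (SE 0.13, adjusted p 2.2e-05). It was lower in OS-LM1, by -0.51 (SE 0.14, adjusted p 0.0024) with shPAX8-1 and by -0.70 (SE 0.14, adjusted p 1.6e-04) with shPAX8-2. PAX8, the target of the hairpins, was the only family member called lower in all 4 comparisons with sgNTC18.

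Tubule and collecting duct factors moved in both directions. Of 27 listed genes, 14 were tested in 786-M1A and 15 in OS-LM1. With shPAX8-1 and shPAX8-2, 4 and 5 were lower and 4 and 4 higher in 786-M1A. In OS-LM1, 5 and 6 were lower and 6 and 6 higher. Among all genes, 34.5% and 30.9% were lower and 36.1% and 31.5% higher in 786-M1A, and 35.8% and 34.1% lower and 35.6% and 34.3% higher in OS-LM1, and with lists this short the counts here and in the lists that follow are descriptions. The list's median log2 fold change lay between -0.10 and 0.19 in these comparisons, beside medians over all genes between -0.01 and 0.03. TFAP2A, an AP-2 factor of the distal nephron, rose in all 4 comparisons, by 0.98 to 1.85. UBP1, a relative of TFCP2L1, rose in OS-LM1 by 0.61 and 0.74 and was lower (-0.55, SE 0.14, adjusted p 0.0024) with shPAX8-2 in 786-M1A. MECOM, a zinc finger factor of the distal nephron, fell with shPAX8-1 in 786-M1A (-0.60, SE 0.13, adjusted p 6.6e-04) and rose in OS-LM1 by 0.37 and 0.46, the first of which was lost with the GC trend removed (0.10, adjusted p 0.23).

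Nephron progenitor factors included genes called in either direction in both lines. Of 14 listed genes, 6 were tested in 786-M1A, with 2 and 1 lower and 2 and 2 higher with shPAX8-1 and shPAX8-2, and 7 in OS-LM1, with 1 and 2 lower and 5 and 4 higher, against 35.6% and 34.3% of all genes higher in OS-LM1. The median log2 fold change of the list was 1.02 and 1.41 in OS-LM1 and -0.10 and 0.14 in 786-M1A. HOXD11, a homeobox gene of metanephric patterning, stood at 4.0 ± 0.739 CPM in OS-LM1 with sgNTC18 and at 32.9 ± 3.81 and 41.4 ± 7.25 CPM with the hairpins (SD, n = 4 each), a rise of 3.02 (SE 0.15, adjusted p 8.1e-13) and 3.38 (SE 0.15, adjusted p 2.5e-13). HOXA11, which acts with it, rose in OS-LM1 by 2.03 and 1.84, and its falls in 786-M1A (-0.45 for both hairpins) were lost on leaving out a library such as sgNTC18 replicate 2 (adjusted p 0.056 and 0.063). SIX4, a homeobox factor of nephron progenitors, went from 6.06 ± 0.682 to 86.7 ± 12.7 CPM with shPAX8-1 and 24.7 ± 3.46 CPM with shPAX8-2 in 786-M1A, rises of 3.86 (SE 0.15, adjusted p 4.0e-11) and 2.05 (SE 0.15, adjusted p 2.3e-08). In OS-LM1 its fold changes had opposite signs for the hairpins, 0.62 (SE 0.16, adjusted p 0.0015) and -0.66 (SE 0.17, adjusted p 0.0016), the former lost with the GC trend removed (0.33, adjusted p 0.056). SALL1, a zinc finger factor of nephron progenitors, fell in 3 of 4 comparisons, by 0.42 to 0.79 on the log2 scale.

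**Figure D4:**
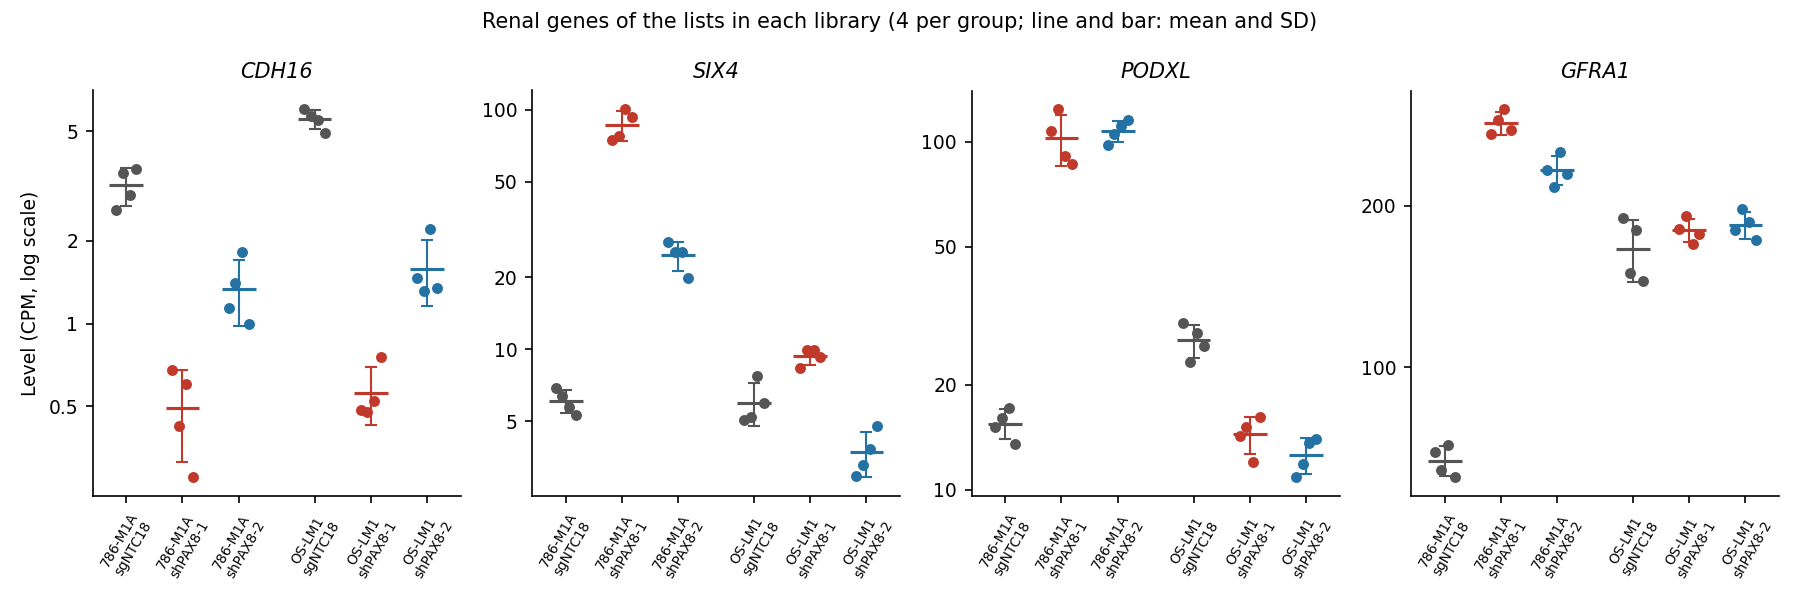
Levels of CDH16, SIX4, PODXL and GFRA1 in CPM on log axes, by line and construct. Each point is a library, and the line and bar give the mean and SD of 4. CDH16 was lower with both hairpins in both lines, while PODXL was higher in depleted 786-M1A libraries and lower in depleted OS-LM1 libraries.

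Genes of nephric duct signalling linked to PAX2 and PAX8 were in part too low to test: 7 passed the filter in at least 1 fit, and RET in none. Of 12 listed genes, 4 were tested in each line. In 786-M1A each hairpin gave 1 lower and 1 higher, and in OS-LM1 each gave 1 lower and 2 higher, beside between 30.9% and 36.1% of all genes in each direction. The list medians were -0.57 and -0.21 in 786-M1A and 1.44 and 1.38 in OS-LM1. CDH16, which encodes kidney-specific cadherin, was the lower gene each time: it went from 3.18 ± 0.50 to 0.495 ± 0.181 and 1.34 ± 0.362 CPM in 786-M1A and from 5.53 ± 0.455 to 0.560 ± 0.134 and 1.58 ± 0.423 CPM in OS-LM1 (SD, n = 4 each). Its log2 fold changes ran from -3.30 to -1.23. GFRA1, the co-receptor of RET for GDNF, rose in 786-M1A by 2.11 (SE 0.09, adjusted p 7.5e-11) and 1.82 (SE 0.09, adjusted p 5.8e-10), with means of 166 to 184 CPM across the OS-LM1 groups. WNT4, a signal for nephron formation, and SPRY1, an inhibitor of receptor tyrosine kinase signalling, rose in OS-LM1 by 3.11 and 3.26 and by 2.79 and 2.61, from means of 0.18 and 0.144 CPM. At these control levels both passed the filter only with the depleted libraries, where they were high. Their calls, and the list medians of OS-LM1 that rest on them, therefore add no support.

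Podocyte and stromal genes were set out because of WT1. Of 11 listed genes, 6 were tested in 786-M1A, with 1 and 2 lower and 4 and 3 higher, and 5 in OS-LM1, with 1 and 2 lower and 1 and 2 higher, beside between 30.9% and 36.1% of all genes in each direction. The list medians were 1.24 and 0.52 in 786-M1A and 0.04 and -0.19 in OS-LM1. The podocyte gene NPHS1 was below the filter in every fit. PODXL, which encodes the podocyte surface protein podocalyxin, rose in 786-M1A by 2.75 (SE 0.13, adjusted p 2.5e-10) and 2.81 (SE 0.13, adjusted p 4.1e-10) and fell in OS-LM1 (-0.92, SE 0.11, adjusted p 6.4e-07, and -1.08, SE 0.12, adjusted p 1.0e-07). SYNPO, an actin-associated gene, fell in 786-M1A (-2.43, SE 0.20, adjusted p 4.9e-08, and -1.28, SE 0.19, adjusted p 3.8e-05). In OS-LM1 it was higher with shPAX8-2 (0.34, SE 0.12, adjusted p 0.018), a call lost in 3 of 15 alternatives (adjusted p 0.12 without shPAX8-2 replicate 3). FOXC1, a forkhead factor of kidney mesenchyme, rose in all 4 comparisons, by 0.49 to 2.00. FOXD1, a stromal forkhead factor, rose with shPAX8-1 in 786-M1A by 0.49 (SE 0.13, adjusted p 0.0035), and its fall with shPAX8-2 (-0.33, adjusted p 0.039) was lost with the GC correction (adjusted p 0.51) and on leaving out any of 6 libraries. WT1 itself was called with neither hairpin in 786-M1A.

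PAX8 also controls thyroid genes in that gland. Of 12 such genes, 4 were tested in 786-M1A, with 0 lower and 1 and 2 higher, and 3 in OS-LM1, with 1 lower and 1 higher for each hairpin, against the same shares of all genes. The list medians were 0.57 and 1.16 in 786-M1A and -0.22 and -0.12 in OS-LM1. SLC26A4, which encodes the anion exchanger pendrin, rose in all 4 comparisons by 1.40 to 2.19, from means of 0.334 and 0.174 CPM. At these control levels it passed the filter only with the depleted libraries, where it was high, so its calls add no support. SLC5A5, the iodide transporter, had means of 1.04 to 1.5 CPM in the 6 groups. DIO1, an iodothyronine deiodinase, rose with shPAX8-2 in 786-M1A by 2.35 (SE 0.40, adjusted p 1.1e-04). It had the lowest mean CPM of the 4 tested genes and was not called with shPAX8-1. A gene this low can pass the filter through the group where it is high, here that of shPAX8-2, so its call adds no support. The same holds for the list medians of 786-M1A, which rest in part on SLC26A4 and DIO1. The thyroid master factor NKX2-1 had no count in any library.

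PAX8-AS1, an RNA from the strand opposite PAX8, was lower in all 4 comparisons, by -2.24 (SE 0.21, adjusted p 2.0e-07) and -1.36 (SE 0.20, adjusted p 3.2e-05) in 786-M1A and by -1.45 (SE 0.32, adjusted p 0.0012) and -1.72 (SE 0.33, adjusted p 4.2e-04) in OS-LM1. Whether the counting used strand is not given in the sources used here, so reads of PAX8 and of its antisense partner cannot be told apart with certainty. WT1-AS paralleled WT1 between the lines, at 2.87 ± 0.753 CPM in 786-M1A and 0.117 ± 0.0995 CPM in OS-LM1 with sgNTC18 (SD, n = 4 each), with the same reservation. EMX2OS had a mean of at least 0.738 CPM in every group, although EMX2 was close to 0.

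The genes whose 6 group means ran most like those of PAX8 were sought among 11848 genes with a mean log2 CPM of at least 1, by the root mean square difference of log2 values after centring each gene. They were PRKCDBP (0.17), TRADD (0.20), LRRN4 (0.25), RAB4B (0.29) and ACCS (0.31). PRKCDBP, which encodes a caveolae-associated protein, had means of 97.5, 7.60 and 13.7 CPM in 786-M1A and 82.9, 28.0 and 29.0 CPM in OS-LM1 with sgNTC18, shPAX8-1 and shPAX8-2. By this measure LHX1 took rank 1205 and PAX2 rank 3348 relative to PAX8. For PAX2 the nearest genes were SPTLC3 (0.16), KCP (0.19), ABCB10 (0.19), ZNF17 (0.20) and ST20-AS1 (0.20). These are descriptions over 6 points that share libraries and depth, and none of either set of 5 was among the nearest 5 within the 3 means of a line.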

How the data were processed

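Poly(A) RNA-seq of 24 cell line libraries was used (6 groups of 4, grouped by the labels). The authors aligned reads to hg38 with Bowtie2 and RSEM against RefSeq genes, and deposited expected counts and TPM for each gene. The annotation release, tool versions and use of strand are not given in the sources used here. The labels name a KAPA stranded kit and the methods another kit. Expected counts were rounded, filtered by filterByExpr, scaled by TMM and tested with edgeR 4.0.16 (quasi-likelihood, robust) in R 4.3.3, within each line (14452 and 15049 genes) for hairpins and over all 24 libraries (15665 genes) for lines and interactions. Calls were made at an adjusted p under 0.05 over all genes tested. DESeq2 1.42.0, other scaling and filters, a GC correction by spline, a replicate block and leave-one-out fits were alternatives. The edgeR fits were tested on simulated data.

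Replicate numbers were not taken to pair the samples: in 0 of 9 comparisons did every pair with the same number correlate above 0.1. This rule cannot exclude pairing. Between the hairpins in 786-M1A the correlations ran from 0.037 to 0.27, with 3 pairs above 0.1. The labels do not say that replicates were separate cultures, so p-values measure only the spread between these samples. Replicates were compared for duplicates and none was found (lowest chi-square per gene 3.73). That value was for replicates 3 and 4 of shPAX8-1 in 786-M1A. Replicates 1 and 2 of that group gave 14.1, and pairs across the 2 sets gave 44.8 to 77.5. The 4 libraries of that group may therefore not count as 4 independent samples. Limits set by counts cover counting error only. The 8 genes and the gene lists were chosen with earlier results of these data known. Named beyond these are, from each list, at most 4 tested genes of highest mean CPM, and the 5 genes most like PAX8 and PAX2, plus genes of the marker lists. Some genes of these lists are not reported here. RET was named after their values were seen. GC content is that of the longest GENCODE transcript of a gene, and 96.0% of genes tested in 786-M1A and 95.9% in OS-LM1 had a GC value. Guide sequences come from the study's oligonucleotide list and were matched to GENCODE release 44 transcripts.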

Additional observations from a re-analysis of the deposited data

Results flagged for a closer look

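Samples far from the other 3 of their group were sought in 157 groups of 4, of which chance alone would flag about 1 in 20, and 7 groups held such a sample. For LHX1 it was OS-LM1 shPAX8-1 replicate 1, at 3.69 CPM against 2.31 to 2.45 in the others. For TFCP2L1 it was OS-LM1 sgNTC18 replicate 2, at 0.644 CPM against 0.271 to 0.310. The remaining values were MECOM at 30.6 CPM in OS-LM1 shPAX8-1 replicate 1, FOXC1 at 15.9 CPM in OS-LM1 shPAX8-1 replicate 2, FOXD1 at 45.2 CPM in 786-M1A shPAX8-1 replicate 1, CDH16 at 0.759 CPM in OS-LM1 shPAX8-1 replicate 4 and SLC26A4 at 1.07 CPM in OS-LM1 shPAX8-2 replicate 2.

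The response to depletion differed between the lines by the interaction term of edgeR, given as the log2 fold change in OS-LM1 minus that in 786-M1A. With shPAX8-1 against sgNTC18 it was 2.45 for PAX8 (adjusted p 1.1e-10), 0.66 for PAX2 (adjusted p 0.0072), 1.70 for WT1 (adjusted p 0.018) and -1.75 for TFCP2L1 (adjusted p 0.025). With shPAX8-2 against sgNTC18 it was 1.30 for PAX8 (adjusted p 5.0e-06). Between the hairpins it was 1.16 for PAX8 (adjusted p 1.5e-04) and 0.69 for PAX2 (adjusted p 0.013).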

How the results depend on the processing

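The falls of PAX8 and LHX1 against sgNTC18 kept their direction and call in all alternatives run, in both lines and with both hairpins. With shPAX8-1 in 786-M1A the value of PAX8 ran from -4.49 to -3.67. The replicate block, which the labels do not justify, gave -4.17 there and changed no count of calls among the 8 genes but that between the hairpins in OS-LM1, from 2 to 0. That count was also 0 with no filter, with the GC trend removed, with replicate block and GC correction together and at an adjusted p under 0.01, 1 in the fit over all libraries, and 0 to 2 on leaving out each library. The count of genes whose response differed between lines went from 4 to 2 at an adjusted p under 0.01 with shPAX8-1 (2 to 4 on leaving out libraries). With shPAX8-2 it went from 1 to 2 with DESeq2, the GC correction, or that and the replicate block (1 to 2 on leaving out libraries), and between the hairpins from 2 to 1 at an adjusted p under 0.01 or with 786-M1A shPAX8-1 replicates 1 and 2 alone (2 to 4 on leaving out libraries). PAX8 between the hairpins in OS-LM1 reversed to 0.051 with the GC trend removed and to 0.044 with the replicate block added, and ran from -0.14 to 0.087 on leaving out libraries. Other values that reversed were not called in the fit reported, and the cause was not tested. With the GC trend removed, and the same with the replicate block added, they were WT1 with shPAX8-1 in 786-M1A (0.12 and 0.12), PAX2 with shPAX8-1 in OS-LM1 (0.32 and 0.32) and the PAX2 difference between lines with shPAX8-2 (0.16 and 0.16). LHX1 between the hairpins in 786-M1A was -0.059 with shPAX8-1 replicates 1 and 2 alone and ran from -0.015 to 0.14 on leaving out libraries. On leaving out libraries, PAX2 with shPAX8-2 in OS-LM1 ran from -0.018 to 0.19, GATA3 between the hairpins in OS-LM1 from -0.73 to 0.40, and the differences between lines with shPAX8-2 from -0.17 to 0.050 for PAX2 and from -0.58 to 0.22 for TFCP2L1. EMX2 and POU3F3 were too low for any fit, and the fitted values of GATA3, TFCP2L1 and, in OS-LM1, WT1 rest on few counts.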
